A study of Mus musculus with 72 samples.

Results

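The stretch of mouse chromosome 12 between 15 and 25 Mb (mm10) held 375 of the 36113 H3K27me1 and H3K27me2 sites that the authors listed as differing between stressed and control mice. For H3K27me1 after chronic defeat, most of them lay where GENCODE places few protein-coding genes, while RefSeq places more, many of them predicted. The sites were chosen by position alone, as every site of the 5 deposited tables whose start lies in that stretch. The stretch itself was picked because of its site counts and directions in these tables, so those counts, the fold changes and the authors' p-values are a description here, and no test was run on them. Of the 375 sites, 217 came from the table of susceptible against control mice for H3K27me1, 111 from resilient against control for H3K27me1, and 46 from early life stress with subthreshold defeat against standard-reared controls for H3K27me1. For H3K27me2, 1 site came from resilient against control and 0 from susceptible against control.

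H3K27me1 is the monomethylated form of lysine 27 on histone H3. Polycomb repressive complex 2 places methyl groups on this lysine in steps, and the mark with the most methyl groups is the classical sign of Polycomb repression. H3K27me1 is known from the bodies of active genes and from repeat-rich heterochromatin, while H3K27me2 is spread widely over the genome. CUT&RUN maps such marks with an antibody that directs a nuclease to cut out the DNA around it, and IgG libraries give the background of the method. The nucleus accumbens belongs to the ventral striatum and takes part in motivated behaviour, and social defeat by an aggressive mouse is a widely used way to stress rodents.

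All mice were adult wildtype males, and all libraries came from nuclei of the nucleus accumbens. In the chronic social defeat cohort, susceptible, resilient and control mice had 4 libraries each per mark. In the other cohort, mice with early life stress and subthreshold defeat had 3 libraries and standard-reared control mice had 3. Libraries of that cohort with early life stress alone or with defeat alone were not analysed here, so that effects of early stress and of defeat cannot be told apart in the table used. The labels do not say whether a library came from 1 animal or from a pool, so the spread between libraries may be partly technical. Depth for H3K27me1, given per the file headers as mean reads in a bin of 1000 bp, was 20.57 to 30.39 in the defeat cohort and 5.0 to 7.78 in the early-stress cohort. Values are normalised counts per site in each library, that is reads scaled by a constant per library, and susceptible and resilient mice were set against the same 4 control libraries.

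The block is rich in copies of the same sequence. RefSeq gives 107 promoters (250 bases before to 50 after a start) for 90 genes in it, and 30 of them (28.04%) had a copy at another gene of the block with at least 90% identity over 200 bases, against 5.93% of all 32851 mouse promoters with such a copy within 10 Mb. Promoters that overlap each other were not counted as copies. In the block, 3 promoters lay under a site past the authors' adjusted p of 0.05, and the share over all mouse promoters was not computed. The promoters of the predicted gene Gm5954 (chr12:24019817-24020116, minus strand) and its near copy Gm9295 (chr12:22674003-22674302, minus strand) are shown because the Gm5954 promoter lies inside a site that was lower in susceptible mice. They differ in 1 of 300 bases (99.7% identity), at position 117 counted from the 5′ end, and the capital marks that base in RefSeq GRCm38.p6.

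Gm5954: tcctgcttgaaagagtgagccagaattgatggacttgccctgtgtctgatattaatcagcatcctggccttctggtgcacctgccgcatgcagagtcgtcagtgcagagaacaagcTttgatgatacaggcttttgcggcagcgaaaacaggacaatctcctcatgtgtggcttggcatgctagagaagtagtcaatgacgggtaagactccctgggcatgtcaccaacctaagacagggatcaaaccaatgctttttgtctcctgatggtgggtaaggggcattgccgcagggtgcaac

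Gm9295: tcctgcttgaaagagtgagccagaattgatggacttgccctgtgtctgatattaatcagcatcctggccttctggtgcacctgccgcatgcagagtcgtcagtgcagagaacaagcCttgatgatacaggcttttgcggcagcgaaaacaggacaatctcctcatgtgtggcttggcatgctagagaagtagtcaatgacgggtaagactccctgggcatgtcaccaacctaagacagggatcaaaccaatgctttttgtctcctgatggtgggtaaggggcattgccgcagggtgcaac

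The other 2 promoters under a site were those of Ywhaq, a phosphoserine-binding adaptor protein (chr12:21417387-21417686, minus strand), and of its neighbour Gm4419 on the opposite strand. The Ywhaq promoter is shown because it lies inside a site that was higher after early life stress and subthreshold defeat, and because it is of another kind: its 30 CG dinucleotides, in capitals, compare with a median of 7 over all mouse promoters, of which 11.7% held at least as many.

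Ywhaq: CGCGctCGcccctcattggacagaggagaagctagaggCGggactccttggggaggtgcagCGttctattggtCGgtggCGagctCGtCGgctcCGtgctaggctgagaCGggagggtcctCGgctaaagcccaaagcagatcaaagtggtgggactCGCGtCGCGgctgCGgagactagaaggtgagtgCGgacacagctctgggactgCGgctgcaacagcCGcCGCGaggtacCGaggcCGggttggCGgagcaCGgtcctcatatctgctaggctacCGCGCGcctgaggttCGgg

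At the site over the Gm5954 promoter (chr12:24019201-24020200), the susceptible libraries had normalised counts of 52.4, 40.6, 79.9 and 76.6, and the control libraries 68.96, 97.9, 96.0 and 87.9. The groups overlapped, since the susceptible libraries with 79.9 and 76.6 were above the lowest control library. The authors' deposited table gives a log2 fold change of -0.49 and an adjusted p of 0.00129. Per the file headers the reads used were unique alignments, so a read that matches both copies without a difference has no unique place; the part of this in the results was not tested.

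In susceptible mice most listed H3K27me1 sites of the block were lower than in controls, and the lower sites lay mainly between 18 and 24 Mb. Of the 217 sites past the authors' adjusted p of 0.05, 200 were lower and 17 higher in susceptible mice, and 49.7% of all sites of that table were lower and 50.3% higher. The median log2 fold change over the 217 sites was -0.42, against 0.29 over the rest of the table without the mitochondrial chromosome. A median over both directions mainly shows which direction has more sites. In that rest, higher sites had a median of 0.43 and lower sites of -0.43. The lower sites changed little in size along the block, with log2 fold changes between -0.63 and -0.17, and their median was -0.42, against -0.43 for lower sites elsewhere. Among 261 stretches of 10 Mb with a site in this table, the block held the most lower sites, 200 against 125 in the next, which was on chromosome 7. The longest run of sites in 1 direction was 60 consecutive lower sites between 22134001 and 23615100, a span of 1.48 Mb.

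**Figure D1:**
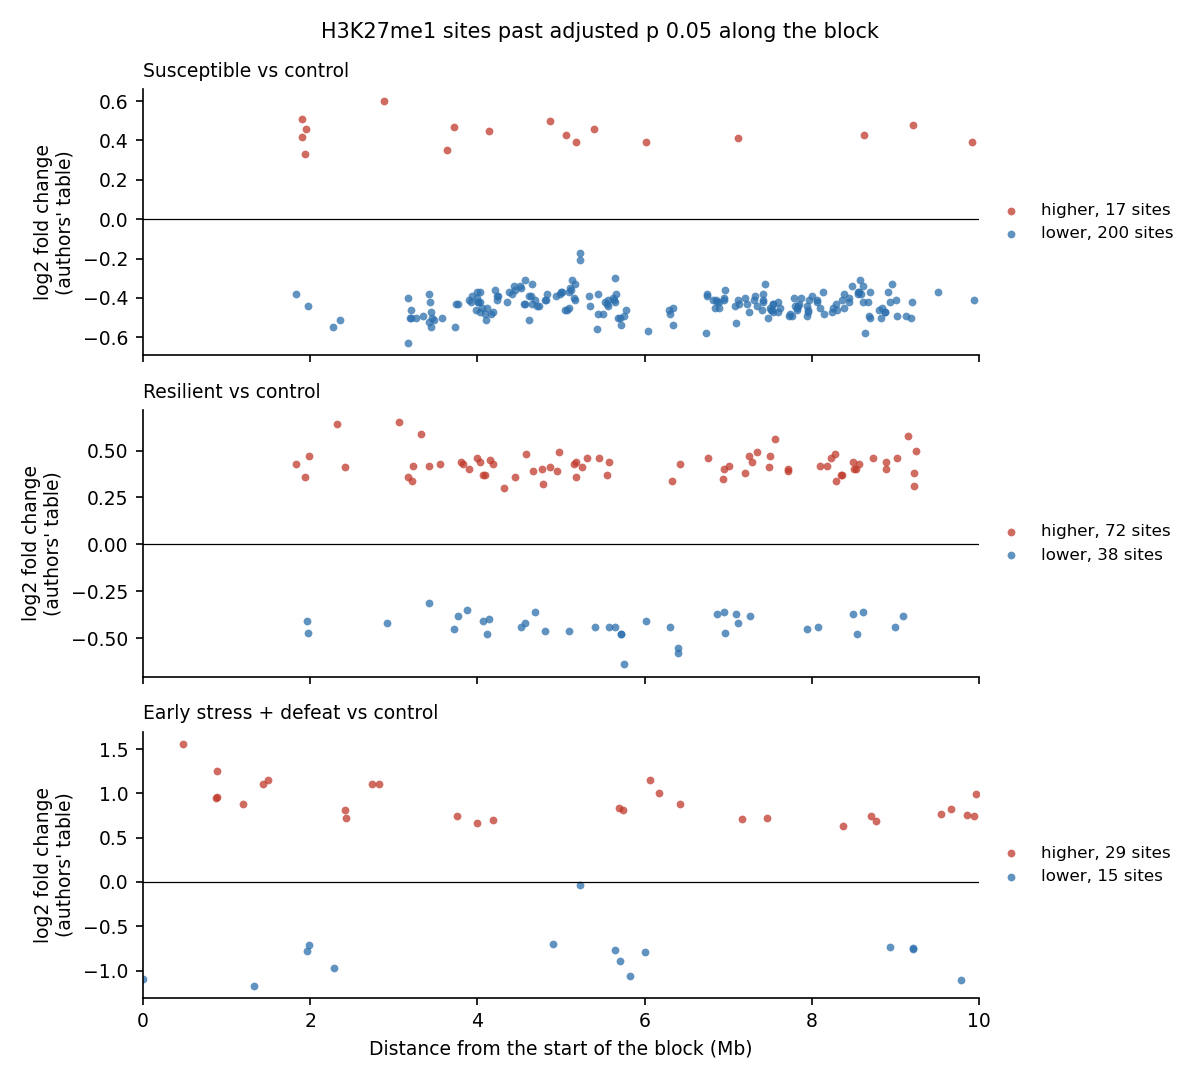
Log2 fold change of normalised counts (stressed over control, authors' tables) of each H3K27me1 site past adjusted p 0.05, against its distance in Mb from the start of the block, for the susceptible, resilient and early-stress tables; red points are higher and blue points lower than control. The susceptible panel holds 200 lower and 17 higher sites, the resilient panel 38 lower and 72 higher sites, and the early-stress panel 15 lower and 29 higher sites.

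The lower site of smallest adjusted p in susceptible mice lay at chr12:22093501-22095900, in the RefSeq pseudogene Gm9283. Its normalised counts were 174, 164, 207 and 229 in susceptible libraries and 281, 268, 304 and 266 in control libraries. Every susceptible library was below every control library. The authors' deposited table gives a log2 fold change of -0.53 and an adjusted p of 2.47e-11. The next lower site, chr12:20530701-20533600 in the RefSeq pseudogene Gm4012, was also the longest of the block at 2900 bp. It had 269, 232, 292 and 254 in susceptible libraries and 334, 280, 429 and 357 in control libraries. Here the highest susceptible library, at 292, was above the lowest control library, at 280. The third, chr12:23386101-23388400, lay in no annotated gene and had 173, 159, 283 and 234 in susceptible libraries against 277, 283, 314 and 288 in control libraries. Susceptible libraries 26 and 29, with 173 and 159, were far below the controls, while library 32, with 283, was within their range.

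Of the 17 higher sites in susceptible mice, the 3 of smallest adjusted p lay in no gene by GENCODE. The first, chr12:17883201-17884500 in the RefSeq predicted gene Gm9222, had 98.8, 126, 115 and 104 in susceptible libraries and 68.96, 62.2, 72.5 and 88.8 in control libraries. All susceptible libraries were above all control libraries, and the authors' deposited table gives a log2 fold change of 0.60 and an adjusted p of 1.04e-05. The second, chr12:24211401-24213200, had 141, 177, 138 and 171 in susceptible libraries and 103, 105, 101 and 140 in control libraries, and control library 34 was within the susceptible range. The third, chr12:20398601-20400000, had 120, 105, 160 and 125 in susceptible libraries and 78.2, 65.7, 117 and 110 in control libraries, so that the groups overlapped.

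In resilient mice the block leaned the other way. Of its 110 sites past the authors' adjusted p, 72 were higher and 38 lower in resilient mice, while 51.6% of the whole table was higher and 48.3% lower. The median log2 fold change over the 110 sites was 0.38, against 0.30 over the rest of the table. By direction it was 0.42 for higher and -0.44 for lower sites of the block, and 0.44 and -0.43 in the rest. Among 262 stretches of 10 Mb the block ranked second for higher sites, after 125 on chromosome 7, and second for lower sites, after 46 on chromosome 2. The longest runs in 1 direction were of 7 sites: 1 of lower sites, between 20579401 and 21305900, and 2 of higher sites, between 22280801 and 22711100 and between 23092901 and 23358800. Without control library 28 the rebuilt test left 47 of the 72 higher sites, and without resilient library 30 it left 23 of the 38 lower sites.

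The higher site of smallest adjusted p in resilient mice, chr12:19585001-19586800, lay in no annotated gene and had 189, 187, 194 and 207 in resilient libraries against 143, 152, 129 and 135 in control libraries. The groups were apart, and the authors' deposited table gives a log2 fold change of 0.48 and an adjusted p of 1.17e-05. The next, chr12:19025001-19026900 in the RefSeq predicted gene Gm40847, had 204, 162, 198 and 186 in resilient libraries and 135, 141, 136 and 139 in control libraries, and all resilient libraries were above all controls. The third, chr12:19659801-19661700, had 290, 193, 241 and 208 in resilient libraries and 180, 134, 202 and 196 in control libraries, with resilient library 30 inside the control range. The lower site of smallest adjusted p in resilient mice was in an intron of Ywhaq, described with the coding genes. The next 2, chr12:22943801-22945400 and chr12:20757301-20758400, lay in no annotated gene. The first of them had 111, 117, 134 and 116 in resilient libraries and 138, 171, 185 and 157 in control libraries. The other had 63, 39.9, 55.9 and 47.2 in resilient libraries and 69.8, 71.1, 88.3 and 91.8 in control libraries, and in both sites all resilient libraries were below all controls.

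Library by library, the lower sites of susceptible mice were low in all 4 libraries. The median over the 200 sites of the log2 ratio of a library to the control mean was -0.46, -0.62, -0.27 and -0.34 in susceptible libraries 26, 29, 32 and 35, and -0.04, -0.09, 0.09 and 0.03 in control libraries 25, 28, 31 and 34. The same 4 susceptible libraries took the same order at lower sites outside the block, with -0.45, -0.53, -0.34 and -0.39. Over the 72 higher sites of resilient mice the medians were 0.45, 0.28, 0.49 and 0.41 in resilient libraries 27, 30, 33 and 36, and between -0.13 and 0.13 in control libraries. Over the 38 lower sites they were -0.35, -0.64, -0.31 and -0.44 in resilient libraries, so library 30 was the lowest of its group at both kinds of site. Outside the block the resilient libraries had 0.40, 0.43, 0.43 and 0.45 at higher sites and -0.40, -0.47, -0.41 and -0.42 at lower sites. There library 30 was the lowest at lower sites only.

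**Figure D2:**
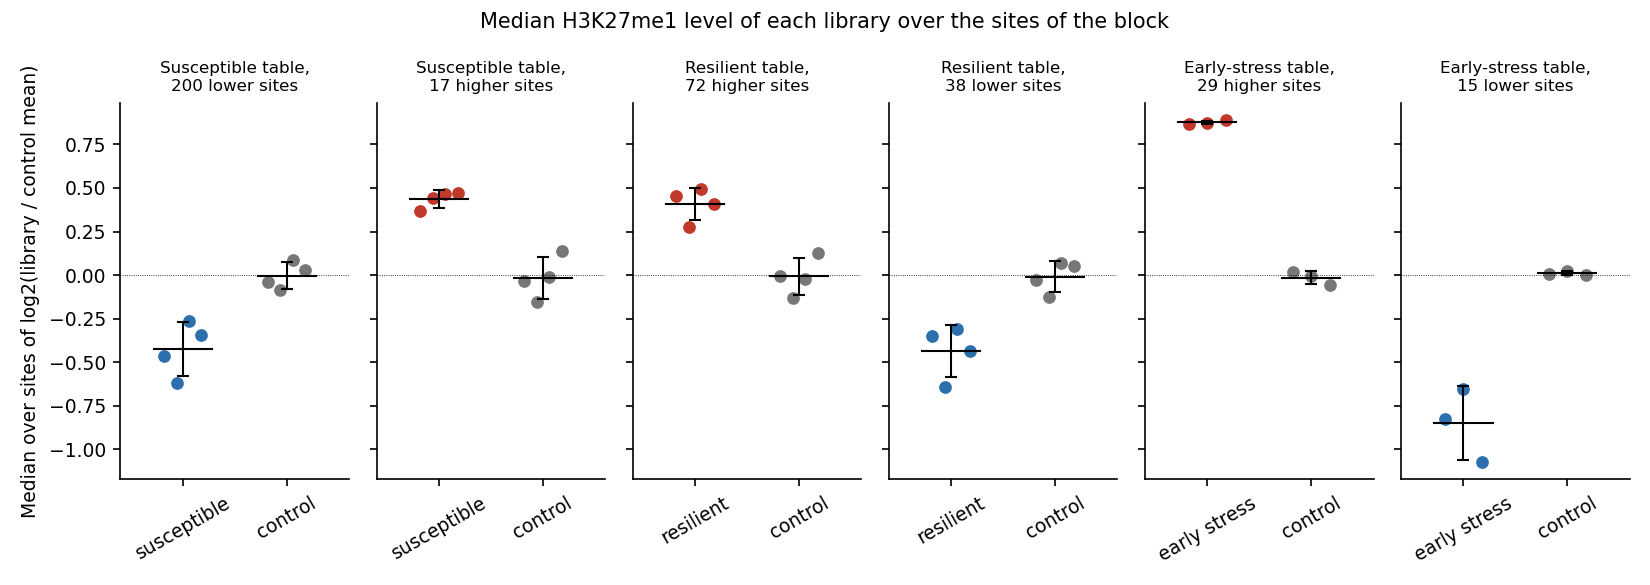
Median over the sites of the block of the log2 ratio of each library to the control mean, for lower and higher H3K27me1 sites of the 3 tables; each point is a library, with the stressed group left of its control group, lines are group means and bars are SDs (4 libraries per group, 3 in the early-stress table). The susceptible libraries lie between -0.62 and -0.27 at the 200 lower sites and the resilient libraries between 0.28 and 0.49 at the 72 higher sites.

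Single sites were less clear than these medians. In the susceptible table all 4 stressed libraries lay on 1 side of all 4 controls at 102 of the 217 listed block sites (47%), against 52.8% over the whole table. In the resilient table this held at 46 of 111 (41.4%), against 54.7%. By direction, the share among sites past the adjusted p was 48% for lower and 35.3% for higher sites in susceptible mice, and 36.1% for higher and 52.6% for lower sites in resilient mice. The authors' G-test pools the reads of a group, so their p-values do not hold the spread between libraries.

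The IgG background was higher in susceptible than in control mice at the lower sites of the block. The background implied by the authors' enrichment values (group mean divided by enrichment over IgG) had a median of 33.9 in susceptible mice and 25.8 in control mice at the 200 lower block sites, and was higher in susceptible mice at 88.5% of them. At lower sites outside the block the medians were 38.3 in susceptible mice and 35.6 in control mice, and 63.7% were higher in susceptible mice. At the 17 higher block sites of susceptible mice the medians were 32.4 in susceptible mice and 30.7 in control mice, and 58.8% were higher in susceptible mice. At the 72 higher sites of resilient mice the medians were 24.1 in resilient mice and 25.5 in control mice. Enrichment over IgG at the lower sites of susceptible mice had a median of 2.79 in susceptible mice and 4.84 in control mice. At the higher sites of resilient mice it was 4.97 in resilient mice and 3.50 in control mice. The authors give 1 background value per group, and its part in the results was not tested.

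The susceptible and resilient tables share their controls and were normalised separately, so their sites are set side by side with no test between them. A single window of the block was listed with the same coordinates in both, chr12:19566701-19567700, in no annotated gene by GENCODE. It had 65.2, 82.2, 66.6 and 101 in susceptible libraries against 85.5, 120, 113 and 107 in the controls of that table. It had 73.2, 58.8, 81.3 and 114 in resilient libraries against 87.7, 123, 116 and 110 in the controls of that table. Both stressed groups overlapped the controls, and the authors' deposited tables give log2 fold changes of -0.43 in susceptible mice and -0.42 in resilient mice. The lower site of smallest adjusted p in susceptible mice, at 22093501, also had a resilient counterpart at chr12:22093801-22095200, with 148, 139, 130 and 140 in resilient libraries and 181, 154, 209 and 176 in control libraries.

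At all other overlapping windows except 3 pairs, both stressed groups were on the same side of the controls they share, and no count is drawn from these. They include every pair that shared at least 0.75 of the shorter window. At the 3 exceptions overlapping windows went in opposite directions, and these share at most 0.47 of the shorter window. The susceptible window chr12:22196201-22197900 had 113, 111, 146 and 148 in susceptible libraries against 180, 144, 158 and 199 in controls. The resilient window chr12:22197201-22198700, which shares 700 bp with it, had 192, 170, 186 and 184 in resilient libraries against 152, 124, 148 and 138 in controls. All 4 susceptible libraries were below, and all 4 resilient libraries above, the mean of their controls. The same held for chr12:22250101-22251200 and chr12:22251101-22252100, which share 100 bp and had means of 68.7 ± 13.5 in susceptible and 95.3 ± 10.8 in control libraries, and of 96.7 ± 18.8 in resilient and 69.98 ± 12.7 in control libraries (SD, n = 4 each). The last pair, chr12:23292801-23294200 and chr12:23293901-23295500 in the pseudogene Gm20472, shares 300 bp. Its means were 110 ± 12.3 in susceptible and 147 ± 16.7 in control libraries, and 197 ± 10.8 in resilient and 155 ± 18.95 in control libraries (SD, n = 4 each). The paired windows cover mostly different bases, so these values do not compare the same sequence.

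**Figure D3:**
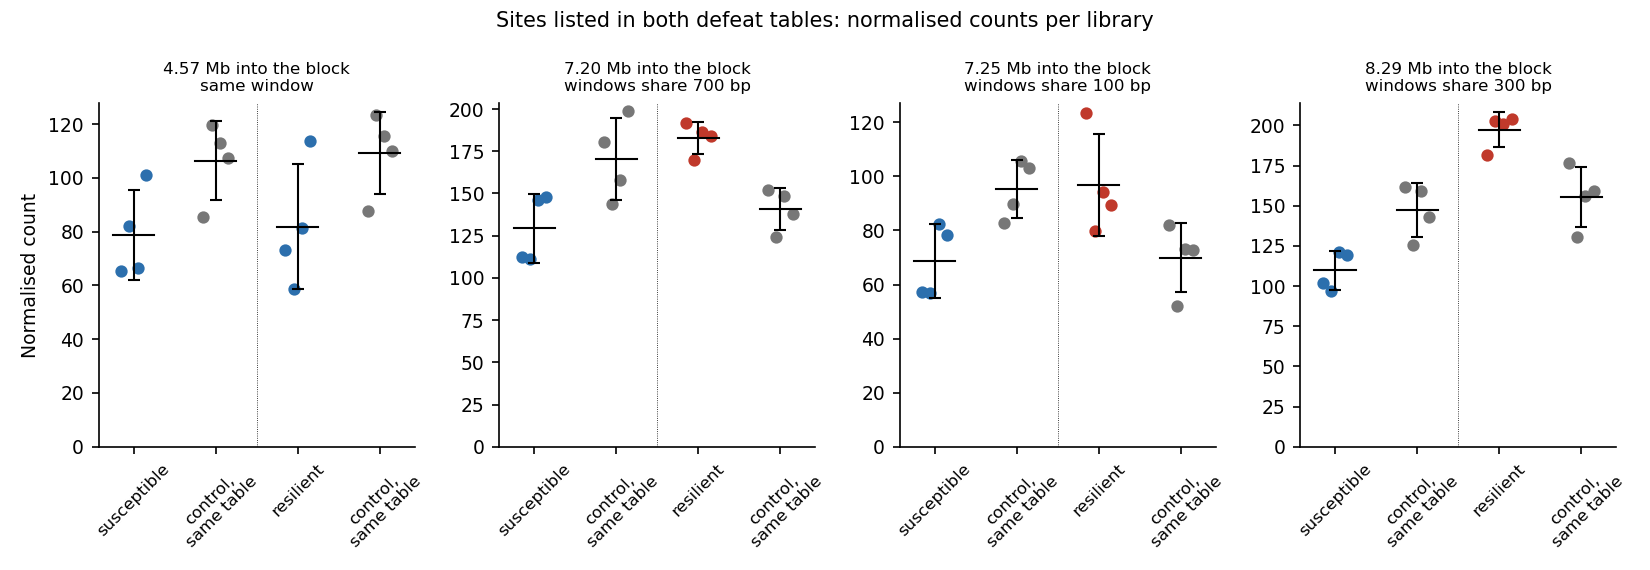
Normalised counts per library at 4 places of the block listed in both defeat tables, with each stressed group left of the controls of its own table; points are libraries, lines means and bars SDs (4 libraries per group), and titles give the distance from the start of the block. At the first place the window is the same and both stressed groups have lower means than their controls. At the other 3 places susceptible libraries are below and resilient libraries above the mean of their controls. The remaining overlapping windows, where both groups went the same way, are not shown.

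Most sites of both defeat tables lay where GENCODE (release M21) places few protein-coding genes. A bin of 1 Mb was called gene-poor where it held fewer protein-coding gene starts than the median bin of chromosome 12, which had 3. The block has 6 gene-poor bins and 4 others. The 6 gene-poor bins held 181 of the 217 susceptible sites (83.4%), 172 of them lower and 9 higher. They held 84 of the 110 resilient sites (76.4%), 57 higher and 27 lower. They held 21 of the 44 early-stress sites (47.7%). The gene-poor bin between 15 and 16 Mb, with 1 coding start, held 0 H3K27me1 sites in susceptible and in resilient mice. The share of sites in gene-poor bins over the whole genome was not computed. Lower sites in susceptible mice numbered 23, 40 and 33 in the 3 bins between 18 and 21 Mb, and 40 and 36 in the 2 bins between 22 and 24 Mb. The bin between 22 and 23 Mb has no protein-coding gene start in GENCODE. The bin between 21 and 22 Mb, which holds Itgb1bp1, Cpsf3, Iah1, Adam17 and Ywhaq, had 17 lower sites and 1 higher site in susceptible mice. Most of these lower sites lay outside its coding genes: Cpsf3 and Adam17 held 2 each, Itgb1bp1, Iah1 and Ywhaq 0, and Asap2, which reaches into the bin, 1. By contrast the bins between 16 and 18 Mb, with 13 protein-coding genes, held 4 lower and 5 higher sites.

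**Figure D4:**
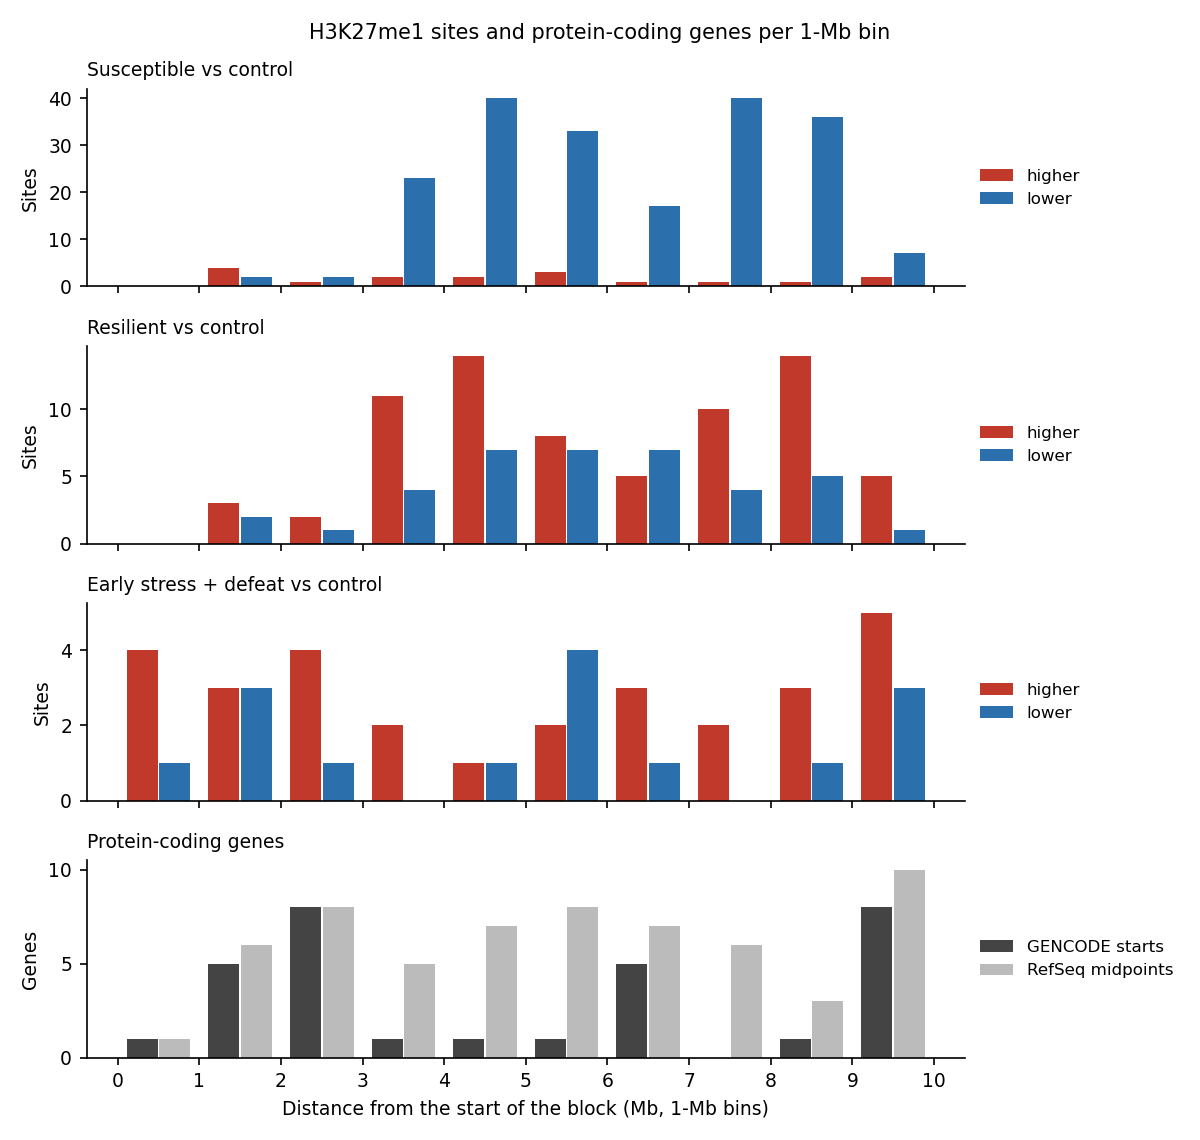
Number of higher (red) and lower (blue) H3K27me1 sites past adjusted p 0.05 in each 1-Mb bin of the block for the 3 tables, and below them the number of protein-coding genes per bin by GENCODE (starts, dark grey) and by RefSeq (midpoints, light grey). The susceptible panel reaches 40 lower sites in the bins at 4 to 5 and 7 to 8 Mb from the block's start, where GENCODE has 1 and 0 coding starts and RefSeq 7 and 6 coding genes.

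How gene-poor the sequence is depends on the annotation. GENCODE counts 251 genes in the block, 160 of them pseudogenes and 31 protein-coding, while RefSeq counts 61 protein-coding genes with their midpoint in it, 35 of them with predicted symbols. Of the 200 lower sites of susceptible mice, 5.5% touched a protein-coding gene body in GENCODE and 35.5% in RefSeq, where protein-coding bodies cover 14.2% and 27.4% of the block's bases. Of the 72 higher sites of resilient mice, 8.33% did so in GENCODE and 36.1% in RefSeq. The 17 higher sites of susceptible mice differed less between the annotations, with 35.3% in GENCODE and 47.1% in RefSeq.

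The predicted RefSeq genes with the most lower sites in susceptible mice were long. Gm40847 (chr12:18853324-19073782) held 12 lower sites in susceptible mice, and 4 higher and 2 lower in resilient mice. Gm40862 (chr12:23396445-23634845) held 11 lower sites and 1 higher site in susceptible mice, and 4 higher and 3 lower in resilient mice. In all, 18 predicted RefSeq genes of the block held a lower site in susceptible mice. Among genes that GENCODE calls non-coding, the transcript Gm48693 held 5 lower sites in susceptible mice and the pseudogene Gm20472 held 4. The pseudogenes Gm49248 and Gm20474, the transcript Gm40864 and 2410018L13Rik held 3 each. In resilient mice Gm20472 held 3 higher sites, Gm20474 held 2 higher and 1 lower, and Gm48693 held 1 lower site. At the Gm48693 site chr12:20620401-20622400 the susceptible libraries had 197, 155, 162 and 177 and the control libraries 199, 234, 239 and 242, with every susceptible library below every control library.

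Of the 31 protein-coding genes of GENCODE in the block, 15 held a site in the gene body or the 1000 bp upstream in at least 1 table. The other 16, Trib2, Greb1, Lpin1, Odc1, Rrm2, Klf11, Grhl1, Kidins220 and Ntsr2 among them, held none. At the site of smallest adjusted p per gene, 8 of 9 genes were lower and 1 higher in susceptible mice, and 6 of 10 were higher and 4 lower in resilient mice. After early life stress and subthreshold defeat 7 of 9 were higher and 2 lower. Counting every site in these genes, 11 were lower and 6 higher in susceptible mice, against 200 and 17 in the whole block. Of these 6 higher sites, 4 lay in 1 gene, which also held 1 lower site, so the smaller lean in coding genes rests largely on that gene. In resilient mice 7 were lower and 6 higher, and after early life stress and subthreshold defeat 10 were higher and 4 lower. The lists of block genes by role were drawn up with earlier results of these data known. The share of all mouse protein-coding genes with a site was not computed. The counts by gene and by list therefore do not show whether block genes held sites more or less often than others.

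Of 10 genes in a list of signalling and membrane genes, which also holds Cpsf3 and Iah1, 6 held a site: 5 higher and 6 lower sites in susceptible mice, 4 and 4 in resilient mice (a site shared by Adam17 and Iah1 is counted for both), and 3 and 3 after early life stress and subthreshold defeat. Without the coding gene that is not reported here, the list held 1 higher and 5 lower sites in susceptible mice. It then held 1 and 2 in resilient mice, with the shared site counted once, and 3 and 1 after early life stress and subthreshold defeat. Asap2, which activates the GTPase of ARF proteins in membrane traffic (chr12:20990459-21270171, plus strand), had its leading susceptible site at chr12:21038501-21040000. By GENCODE this is an intron that the non-coding gene Gm30124 overlaps. RefSeq starts Asap2 at 21111368, so by RefSeq this site lies outside the gene. The site had 77.1, 75.9, 93.2 and 71.1 in susceptible libraries and 109, 96.8, 133 and 131 in control libraries. All susceptible libraries were below all controls, and the authors' deposited table gives a log2 fold change of -0.57 and an adjusted p of 1.62e-05. Adam17, the protease that sheds tumour necrosis factor from the cell surface, had 2 lower sites in susceptible mice. The leading one, chr12:21344901-21345900 over an exon, had 56.3, 46.96, 45.98 and 48.3 in susceptible libraries and 68.04, 72.6, 73.6 and 72.8 in control libraries, with the groups apart. In resilient mice a site shared by the ends of Adam17 and of its neighbour Iah1, an esterase gene (chr12:21322701-21323700), had 163, 174, 152 and 139 in resilient libraries and 133, 102, 117 and 144 in control libraries, and the groups overlapped. Cpsf3, the nuclease that cuts pre-mRNA before polyadenylation, had 2 lower sites in susceptible mice and 1 in resilient mice. At its resilient site chr12:21304701-21305900 the resilient libraries had 84.3, 72.1, 97.0 and 83.8 and the control libraries 121, 98.4, 116 and 123, with the groups apart.

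Of 6 transcription factors and cofactors, E2f6 and Taf1b held a site: 2 lower sites in susceptible mice, 1 higher in resilient mice and 1 higher after early life stress and subthreshold defeat. E2f6, a repressor of the E2F family, had different windows in each defeat table. Its exonic site chr12:16824401-16825800 had 116, 117, 183 and 124 in susceptible libraries and 185, 151, 206 and 160 in control libraries, where susceptible library 32 lay within the control range. Its site chr12:16826301-16827400 had 121, 103, 117 and 86.7 in resilient libraries and 68.8, 83.0, 93.8 and 71.8 in control libraries, and the groups overlapped. Taf1b, a subunit of the factor that recruits RNA polymerase I to ribosomal DNA, had at chr12:24509601-24511200 values of 110, 120, 115 and 102 in susceptible libraries and 154, 138, 142 and 145 in control libraries. All susceptible libraries were below all controls there.

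Of 9 genes in a list of metabolism and the secretory pathway, which also holds Ywhaq, 5 held a site: 1 higher and 3 lower in susceptible mice, 2 and 2 in resilient mice, and 5 higher and 1 lower after early life stress and subthreshold defeat. Pdia6, a disulfide isomerase of the endoplasmic reticulum, had 57.3, 55.99, 73.8 and 83.9 in susceptible libraries and 92.0, 91.0, 103 and 109 in control libraries at chr12:17273501-17274700, with the groups apart. Nol10, a nucleolar protein, had 55.3, 57.8, 84.7 and 77.5 in susceptible libraries and 86.4, 83.0, 137 and 85.2 in control libraries at chr12:17360101-17361200. Susceptible library 32 was above 1 control library there, so the groups overlapped. Atp6v1c2, a subunit of the proton pump that acidifies vesicles, had 73.2, 69.8, 89.2 and 74.2 in resilient libraries and 55.6, 43.9, 45.8 and 50.9 in control libraries at chr12:17318901-17319900. These groups were apart, and the authors' deposited table gives a log2 fold change of 0.64 and an adjusted p of 0.000393. The Ywhaq intron held the lower site of smallest adjusted p in resilient mice, chr12:21399401-21400700, with 86.8, 96.4, 54.9 and 85.7 in resilient libraries and 110, 105, 146 and 113 in control libraries. All resilient libraries were below all controls. Mboat2, an acyltransferase of membrane lipids, had 88.9, 66.8, 98.01 and 90.3 in susceptible libraries and 98.4, 96.8, 127 and 136 in control libraries at chr12:24944101-24945300, and the groups overlapped. Of the 2 coding genes outside the lists, the predicted gene 9030624G23Rik had a lower site in resilient mice, with a mean of 124 ± 13.5 in resilient and 162 ± 7.18 in control libraries (SD, n = 4 each).

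**Figure D5:**
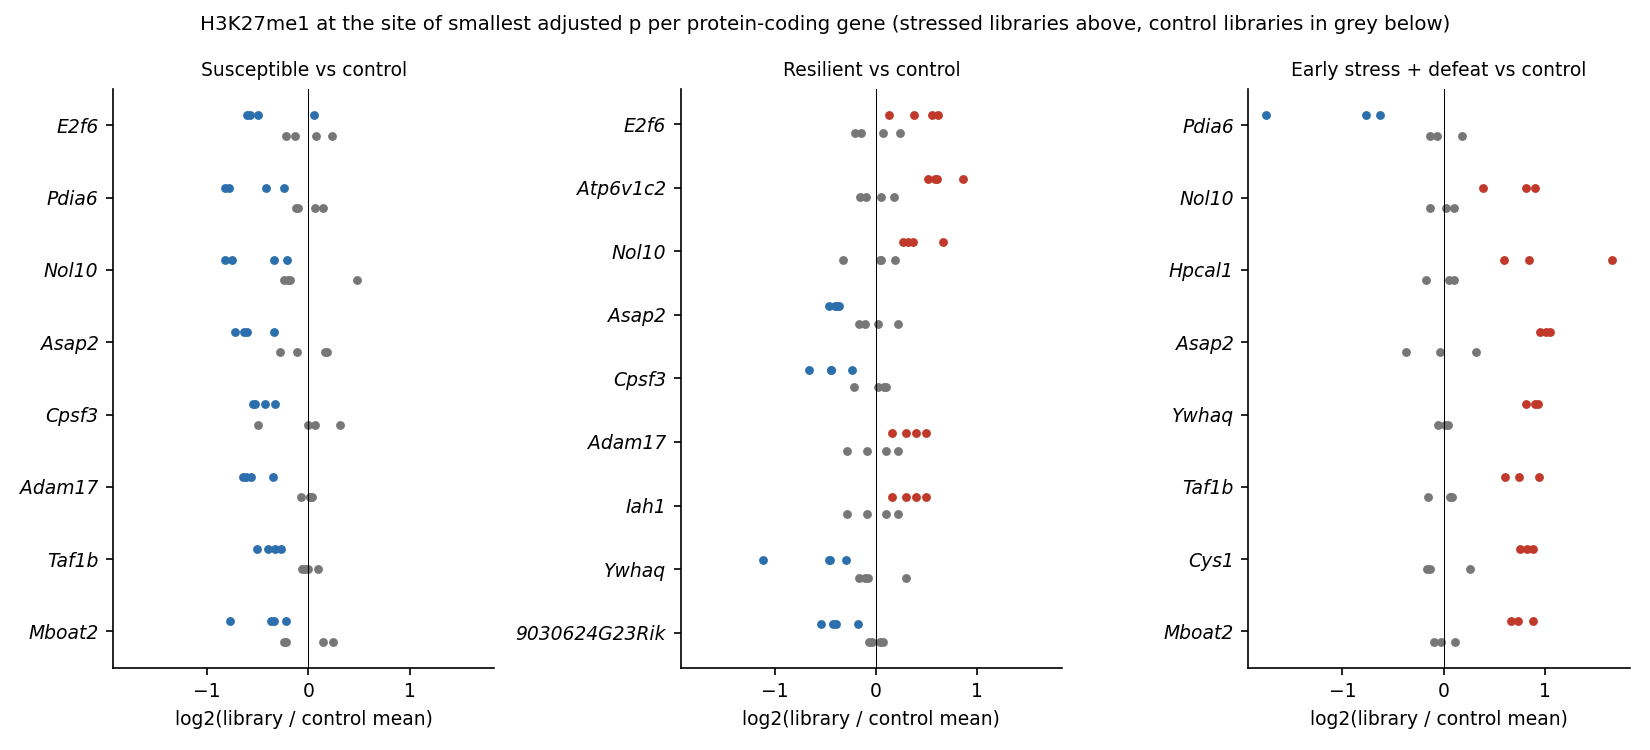
Log2 ratio of each library to the control mean at the H3K27me1 site of smallest adjusted p per protein-coding gene, in the susceptible, resilient and early-stress tables; in each row stressed libraries (red where higher, blue where lower) are above and control libraries (grey) below. The groups are apart at 4 of 8 susceptible, 6 of 9 resilient and 8 of 8 early-stress sites shown, and 1 gene of each panel is not shown; Adam17 and Iah1 share their resilient site.

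In the early-stress table the block split between higher and lower sites much like the whole table. Of its 44 block sites past the authors' adjusted p, 29 were higher and 15 lower after early life stress and subthreshold defeat, while 64.7% of the whole table was higher and 31.9% lower. Among 290 stretches of 10 Mb the block ranked 75th for higher and 64th for lower sites, and its sites lay a median of 138200 bp apart, against 17100 bp in the susceptible and 48300 bp in the resilient table. The median log2 fold change over the 44 sites was 0.73, against 0.88 over the rest of the table. By direction it was 0.82 for higher and -0.78 for lower sites of the block, and 0.98 and -0.97 in the rest. All 3 stressed libraries lay on 1 side of all 3 controls at 44 of the 46 listed sites (95.7%), against 98.8% over the table.

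Single early-stress sites had few reads. The higher site of smallest adjusted p, chr12:16494401-16495800, had 43.6, 41.1 and 45.3 in stressed libraries and 13.8, 19.4 and 25.3 in control libraries, and the groups were apart. It lay 39.9 kb from Lpin1, the nearest coding gene, and the authors' deposited table gives a log2 fold change of 1.15 and an adjusted p of 0.00167. Its enrichment over IgG was 1.14 in stressed and 0.46 in control mice. In an Asap2 intron, chr12:21173401-21174700 had 63.1, 60.7 and 64.7 in stressed libraries and 30.6, 24.3 and 39.2 in control libraries. In a Mboat2 intron, chr12:24861001-24862100 had 83.7, 92.4 and 79.8 in stressed libraries and 54.3, 49.6 and 47.1 in control libraries. Stressed libraries were above all controls at both. The 3 lower sites of smallest adjusted p were chr12:24786401-24787700, chr12:21008701-21009700 and chr12:16322601-16323600. The second of them, within Asap2 by GENCODE but outside it by RefSeq, had 63.1, 67.2 and 46.4 in stressed libraries and 104, 101 and 100 in control libraries. The means of the others were 18.1 and 12.4 in stressed and 39.01 and 27.9 in control libraries. Both of these others were below the IgG background, with enrichments of 0.41 and 0.48 in stressed and 0.91 and 0.96 in control mice.

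Over the CG-rich Ywhaq promoter, the early-stress site chr12:21417201-21418200 had 45.9, 46.7 and 43.2 in stressed libraries and 24.7, 25.3 and 23.5 in control libraries. The groups were apart, and the authors' deposited table gives a log2 fold change of 0.88 and an adjusted p of 0.0103. Both groups were below the IgG background there, with an enrichment of 0.18 in stressed and 0.11 in control mice. Hpcal1, a neuronal calcium sensor, had 35.6, 41.99 and 74.4 in stressed libraries and 20.8, 25.3 and 24.4 in control libraries at an intronic site. Cys1, a ciliary protein, had 53.9, 51.3 and 56.1 in stressed libraries and 36.6, 27.2 and 27.9 in control libraries. Pdia6 had 49.3, 54.1 and 24.8 in stressed libraries and 76.1, 95.2 and 80.2 in control libraries. At each of these 3 sites the groups were apart.

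Early-stress and susceptible tables share no library, and few of their sites met. Of the 46 early-stress sites 4 (8.70%) overlapped a susceptible site, which made 3 of the 217 susceptible sites (1.38%), and no early-stress site overlapped a resilient one. Of these 4, 3 lay in the stretch of highest signal in the block, between 20229501 and 20233600, where changes were small. The susceptible window chr12:20231501-20233400 had 988, 798, 1018 and 941 in susceptible libraries and 982, 965, 1134 and 1128 in control libraries, with the groups overlapping. The early-stress window chr12:20229801-20230800 had 304, 295 and 319 in stressed libraries and 326, 320 and 294 in control libraries, and the authors' deposited table gives it a log2 fold change of -0.03, against 0.20 and 0.06 for the other 2 early-stress windows of the stretch. The remaining early-stress site, chr12:24211901-24212900, went the other way from the higher susceptible site that contains it, with a mean of 45.4 ± 13.4 in stressed and 75.7 ± 1.39 in control libraries (SD, n = 3 each).

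H3K27me2 was nearly absent from the lists here. The susceptible table listed 0 of its 2078 sites in the block, while 30.6% of its sites were lower and 69.3% higher overall. The resilient table listed 1 of 4659, a higher site at chr12:15304401-15305400, and 79.5% of that table was higher. This site had 75.7, 78.5, 81.6 and 78.9 in resilient libraries and 59.5, 53.1, 27.0 and 66.7 in control libraries. The groups were apart, as at 58.6% of that table's sites, and the nearest protein-coding gene was Trib2, 486 kb away. The tables list only windows that passed the authors' limit, so an unlisted window is not shown to be unchanged.

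Both defeat tables listed no site close to the borders of the block on the outside, while the early-stress table did. In the susceptible table the last site before it, chr12:14139601-14140800, had means of 105 in susceptible and 79.3 in control libraries, and the first inside was the E2f6 site at 16824401. The last inside was the Mboat2 site at 24944101, and the first after it, chr12:28653501-28654700, had means of 108 in susceptible and 141 in control libraries. In the resilient table the neighbours just outside started at 13567701 and 28624601, with log2 fold changes of 0.47 and 0.39 in the authors' deposited table. The first and last inside started at 16826301 and 24244801, with 0.43 and 0.50. In the early-stress table the sites just outside started at 14978301 and 25069901, with 1.23 and 0.97, and those just inside at 15003101 and 24968801, with -1.09 and 0.99.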

How the data were processed

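The deposited tables of differential sites were used. Per the file headers, the authors ran diffReps 1.55.4 on uniquely aligned reads without duplicates (windows of 1000 bp, step 100 bp, fragment 100 bp, p limit 0.0001, IgG as background), with a G-test for the 4 defeat tables and a negative binomial test for the early-stress table. The submitters' processing notes name the mm10 build and, in no stated role, MACS2 2.2.6, SAMtools 1.10, Bowtie2 2.4.1, cutadapt 2.10 and Trim Galore 0.6.5. Counts per library were normalised by the authors, and the signal of each group is the mean of them. The log2 fold changes, the p-value and adjusted p-value, and the enrichment over IgG, a ratio, are the authors' as deposited.

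The block's sites, the lists of genes and the alternatives were chosen with earlier results of these data known. Named genes were all protein-coding block genes with a site past adjusted p 0.05, each at its site of smallest adjusted p per table, plus the 3 higher and 3 lower sites of smallest adjusted p per table. Of these, 1 coding gene is not reported here; counts of genes and of listed sites include it, and the plot of coding genes does not. Genes came from GENCODE M21 and RefSeq GRCm38.p6. The alternatives without a library used a rebuilt G-test, tested on simulated data, whose log10 p differed from the deposited one by at most 0.05 at 100% of the block's defeat sites. The simulated counts held sampling noise only, so they do not show how the test behaves with spread between libraries. Promoter copies were found with BLAST 2.17.0. Figures were drawn with matplotlib 3.10.9, and tables were handled with numpy 2.4.6, scipy 1.17.1 and pandas 2.3.3. The planned test of susceptible against resilient libraries at windows of the same coordinates was not run, since the block holds 1 such window.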

Additional observations from a re-analysis of the deposited data

Results flagged for a closer look

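Among 62 groups of 4 libraries at the named sites, 3 held a library far from the others, and chance gives about 1 in 20. At the higher susceptible site chr12:24211401-24213200 control library 34 had a normalised count of 140.24. At the E2f6 site chr12:16824401-16825800 susceptible library 32 had 182.71. At the Nol10 site chr12:17360101-17361200 control library 31 had 136.53.

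At 3 places all susceptible libraries were below, and all resilient libraries above, the mean of their controls in overlapping windows. The log2 fold change of susceptible minus that of resilient mice was -0.78 for the windows at 22196201 and 22197201, -0.94 for those at 22250101 and 22251101, and -0.77 for those at 23292801 and 23293901. These windows share at most 0.47 of the shorter one, and the differences were not tested. At all remaining overlapping windows both groups went the same way.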

How the results depend on the processing

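Of 194 recomputed values 175 stayed within 1.5 times of a count or within the spread of a value, and 19 moved. A count cannot reverse by this rule, and H3K27me2 counts of 0 stayed at 0 because no such site is listed in the block. No median log2 fold change changed sign, but these medians cover sites listed for passing the same contrast. The number of kept values is therefore no measure of how firm the results are. At an adjusted p below 0.001 the susceptible sites numbered 6 higher and 98 lower, the resilient sites 14 higher and 8 lower, and the early-stress sites 0 higher and 0 lower. At 0.01 the early-stress sites numbered 12 higher and 8 lower. Leaving out 1 library left 12 to 17 higher and 142 to 199 lower susceptible sites, and 47 to 69 higher and 23 to 38 lower resilient sites. It gave a median log2 fold change of -0.48 to -0.35 in susceptible mice, 0.31 to 0.42 in resilient mice and 0.69 to 0.75 in the early-stress table. It gave 106 to 152, 52 to 61 and 44 to 45 sites with groups apart in these tables, where fewer libraries make such sites more frequent. For the H3K27me2 site the log2 fold change ran from 0.40 to 0.76 without 1 library and was 0.53 with a pseudocount of 10, and with counts scaled to equal sums its groups overlapped, leaving 0 such sites. The early-stress median was 0.62 with a pseudocount of 10.

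Chosen after seeing the data, RefSeq gene bodies raised the share of sites in coding genes to 35.5% of lower susceptible and 36.1% of higher resilient sites. The share of block promoters with a copy was 7.48% at 98% identity over 250 bases, against 3.17% of all promoters. The negative binomial test without 1 library and the copies over the site bases (no genome sequence was used here) were not run. No paired analysis was possible because the groups share no replicate numbers.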
